A study of Homo sapiens with 16 samples.

Results

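The lowest dose of each compound was compared with solvent in U2OS cells, an established human osteosarcoma line with functional p53. The conditions described, all at 6 h, were DMSO as the solvent control and 0.5 µM of CPT, of T4 or of T5. They made up 4 of the 16 RNA sequencing libraries of the study, which gave each of the 3 compounds at 5 doses from 0.5 to 20 µM. Each condition had 1 library of cultured cells with no other genetic change or agent stated, so every value below is a ratio between single libraries, without replicate check and without p-value. Levels are in FPKM, the sequenced fragments of a gene relative to its transcript length and to the library's total, as deposited by the authors. Of 25270 genes in the matrix, 10600 were described, those whose FPKM averaged 1 or more across the 16 libraries. A ratio is a difference of log2(FPKM + 1), a scale on which changes of low genes appear smaller than they are, and "higher" or "lower" by 2-fold refers to that scale.

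CPT is the usual abbreviation of camptothecin, although the labels do not spell it out. Camptothecin traps topoisomerase I on DNA after it has cut a strand, which blocks RNA polymerase II and, in replicating cells, breaks DNA; such damage activates the transcription factor p53. Because a polymerase must cross a whole gene to finish its transcript, topoisomerase I poisons are known to lower long transcripts most. T4 and T5 are code names. The series calls them modulators of alternative polyadenylation (APA), the choice between several sites where the 3′ end of a transcript can be formed.

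The 4 libraries were alike in scale. FPKM summed to 238669 in DMSO, 250880 with CPT, 244746 with T4 and 240588 with T5. Sequencing depth, read from the step size of low values, was 0.829 of that of DMSO for CPT, 0.940 for T4 and 0.993 for T5. Markers of the line were present: VIM, an intermediate filament protein of mesenchymal cells, lay between 358 and 379 in the 4 libraries and COL1A1, a bone matrix collagen, between 301 and 391. The 10 line markers summed to 1534 FPKM in DMSO, 1780 with CPT, 1598 with T4 and 1661 with T5, with TWIST1 listed at 0 throughout. No blood cell marker passed 0.126 FPKM, and 4 of 7 were listed at 0. The 7 epithelial markers summed to 5.58 in DMSO, 9.63 with CPT, 10.1 with T4 and 13.8 with T5, a difference carried by the tight junction gene CLDN4 (3.15, 6.92, 7.68 and 11.1 FPKM in the same order). Whether epithelial markers play a part in any result below was not tested. In bulk RNA, fewer cells of a type and less RNA per cell cannot be told apart, and a change in total RNA per cell is not visible in FPKM.

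At 0.5 µM the compounds differed in how many genes departed from DMSO. With CPT, 260 genes (2.45% of those described) were at least 2-fold higher and 722 (6.81%) at least 2-fold lower. T5 followed, with 128 genes (1.21%) higher and 467 (4.41%) lower, and T4 had the fewest, 39 (0.368%) higher and 109 (1.03%) lower. These counts include poorly measured entries, which were not removed. Small RNAs listed at 0 in DMSO are among them, such as SNORD22 with CPT (198 FPKM), MIR1226 with T4 (5504) and MIR663A with T5 (3205). The counts are therefore not a clean measure of the size of a response. The central 95% of log2 ratios ran from -1.44 to 0.995 for CPT, from -1.15 to 0.77 for T5 and from -0.81 to 0.59 for T4. All 3 comparisons share the single DMSO library, so any peculiarity of that library enters each of them. The balance of directions for T5 depended on scaling. The median of all genes was -0.10 for T5, 0.02 for CPT and -0.02 for T4. Centring each library on its median moved the T5 median by 0.18 and turned the T5 counts into 220 higher and 241 lower, and quantile normalization moved it by 0.11 and gave 249 and 272. For T4, quantile normalization gave 62 higher and 86 lower. T5 differences below are best read against its all-gene median.

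**Figure D1:**
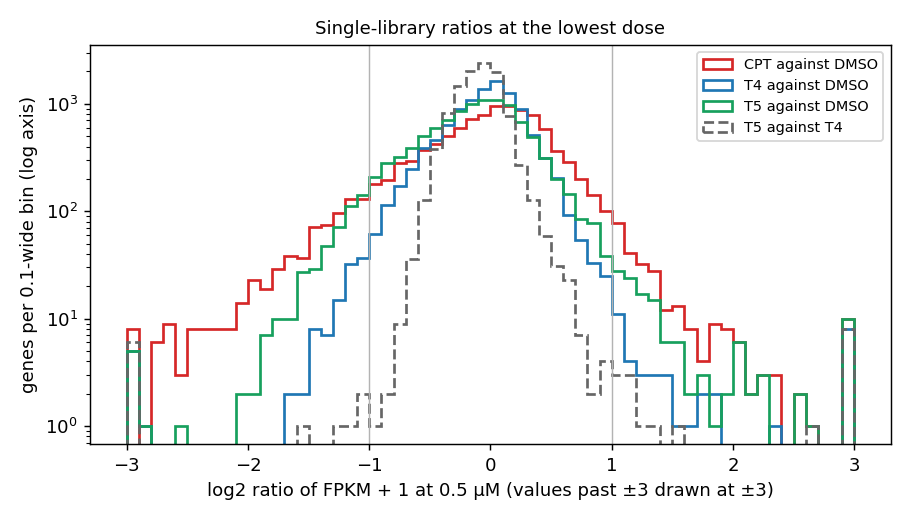
Distribution over 10600 genes of the log2 ratio of FPKM + 1 for each 0.5 µM library against DMSO and for T5 against T4, with the 2-fold limits marked and values past 3 drawn at 3. CPT was the most widely spread against DMSO, T4 the least, and T5 against T4 was narrow.

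Long genes made up most of the lower genes with CPT. GPHN, the gephyrin gene, whose product anchors inhibitory synaptic receptors and takes part in molybdenum cofactor synthesis, spans 1227 kb in the RefSeq annotation. Its FPKM was 20.7 in DMSO, 0.66 with CPT, 19.7 with T4 and 15.5 with T5. EXT1 (317 kb), a heparan sulfate polymerase, stood at 59.7 in DMSO, 6.88 with CPT, 72.3 with T4 and 71.0 with T5. For PTK2 (344 kb), which encodes focal adhesion kinase, the values were 38.0, 4.81, 38.1 and 33.8. In each of these genes only the CPT library was far below the rest. CDK14 (614 kb), a cyclin-dependent kinase, read 39.4 in DMSO, 5.08 with CPT, 42.8 with T4 and 36.8 with T5. PPP3CA (324 kb), a catalytic subunit of calcineurin, read 24.7, 2.84, 28.1 and 22.8. DIAPH3 (498 kb), a formin that nucleates actin filaments, read 16.1, 1.48, 16.02 and 15.9. On the log2 scale the CPT ratios of these genes were -3.71 for GPHN, -2.95 for EXT1, -2.75 for PTK2, -2.73 for CDK14, -2.74 for PPP3CA and -2.78 for DIAPH3. The other 4 of the 10 lowest were RBMS3 (729 kb), SIPA1L1 (421 kb), CDKAL1 (698 kb) and APBB2 (405 kb), with CPT ratios of -3.04, -2.77, -2.71 and -2.69. RBMS3 and APBB2 were also lower with the other compounds: RBMS3, an RNA-binding protein, stood at 11.04 in DMSO, 0.46 with CPT, 7.62 with T4 and 6.10 with T5.

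**Figure D2:**
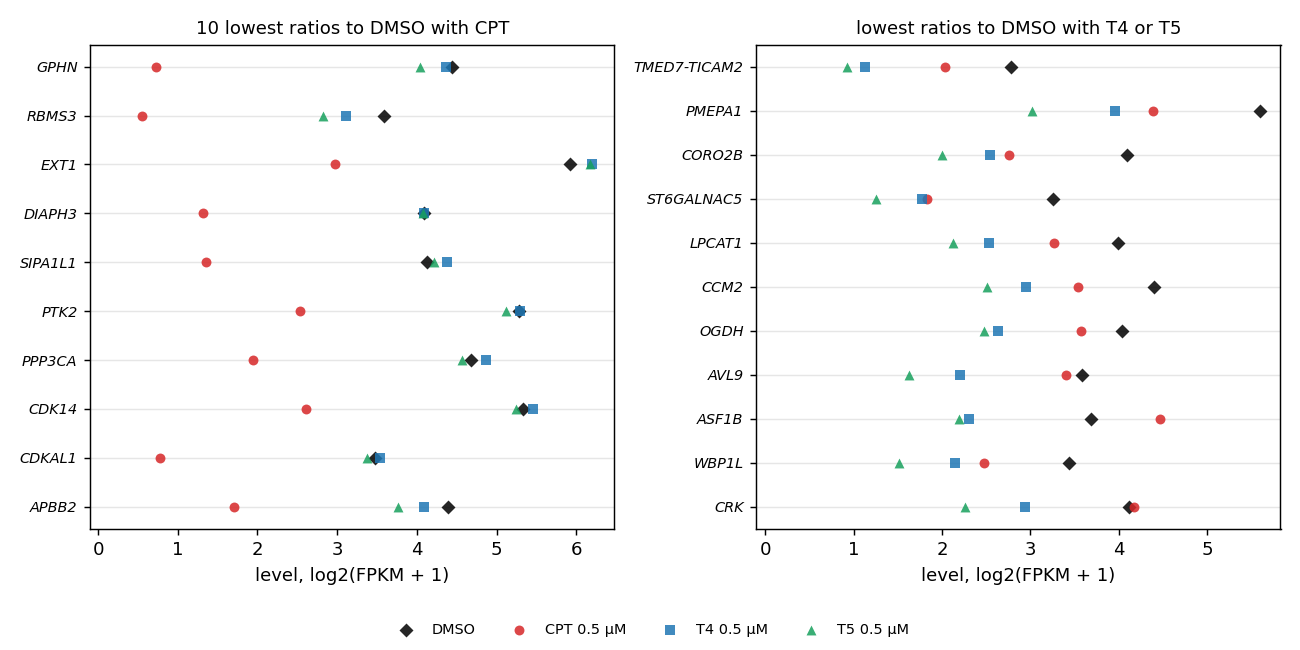
Level as log2(FPKM + 1) in the 4 libraries for the genes with the lowest CPT ratio and the genes with the lowest T4 or T5 ratio to DMSO, leaving out a near-identical paralog. In the first panel CPT sits apart on the low side; in the second T5 is lowest and T4 next in most genes.

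Over all genes with a span in the table, the CPT ratio stepped down with span. The median was 0.26 for the 2289 genes up to 10 kb, 0.21 from 10 to 20 kb, 0.06 from 20 to 50 kb and -0.23 from 50 to 100 kb. It was -0.63 from 100 to 200 kb (1144 genes), -1.08 from 200 to 400 kb (462 genes) and -1.10 beyond 400 kb (192 genes). The share of genes at least 2-fold lower went from 0.568% in the shortest class to 4.196% from 50 to 100 kb, 19.8% from 100 to 200 kb and 54.7% beyond 400 kb. T4 had no such gradient, with class medians between -0.06 and -0.00. The T5 medians moved far less than those of CPT, from -0.03 in the shortest class to -0.18 from 200 to 400 kb. Beyond 400 kb the T5 median was -0.09. The gradient did not need the DMSO library, since CPT against T4 had a median of 0.30 in the shortest class and -0.99 in the longest, and CPT against T5 had 0.28 and -0.97. Median level in DMSO also differed between classes, from 8.76 FPKM in the shortest and 10.2 from 10 to 20 kb to 5.50 in the longest; among genes with at least 10 FPKM in DMSO the CPT medians were -1.22 from 200 to 400 kb (150 genes) and -1.37 beyond 400 kb (60 genes).

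**Figure D3:**
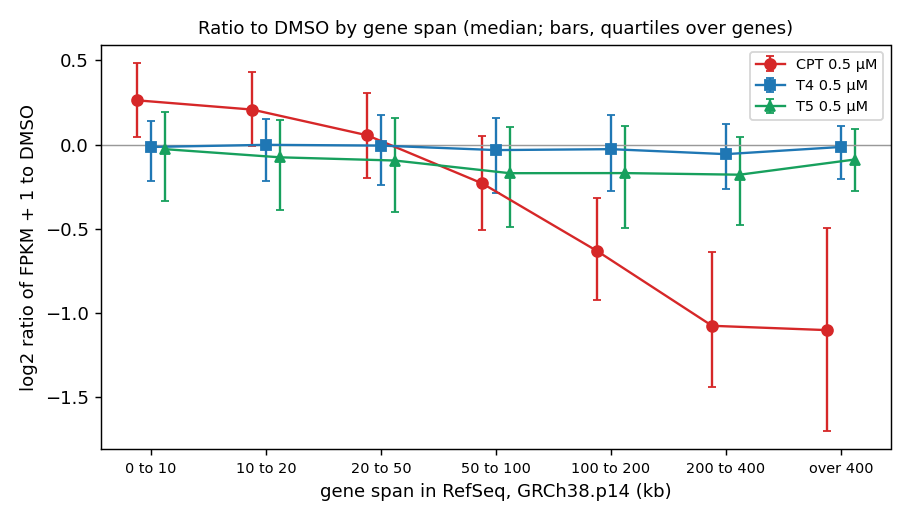
Median log2 ratio to DMSO (points) in 7 classes of gene span for each compound at 0.5 µM, with bars from the first to the third quartile of genes in each class. The CPT medians go from 0.26 in genes up to 10 kb to -1.10 beyond 400 kb, while T4 and T5 stay near their all-gene medians.

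Genes at least 2-fold lower with CPT had a median span of 199 kb, against 29.1 kb for all genes, and 581 of the 714 with a span (81.4%) exceeded 100 kb, as did 17.2% of all genes. Genes at least 2-fold higher with CPT had a median span of 10.5 kb. With T5 the lower genes had a median of 38.7 kb and with T4 41.8 kb, closer to the genome at large than to the CPT genes. Of 654 genes beyond 200 kb, 610 (93.3%) had a CPT ratio below 0. Exceptions, picked after their values were seen, were PCDH7 (426 kb), a protocadherin with 4.85 FPKM in DMSO, 9.38 with CPT, 7.67 with T4 and 8.003 with T5, and FBXW7 (216 kb), a ubiquitin ligase substrate receptor with 6.05, 9.15, 8.74 and 10.5. Both long genes were higher than DMSO with all 3 compounds. TOP1, the gene of topoisomerase I itself, read 31.0 in DMSO, 23.6 with CPT, 39.7 with T4 and 41.0 with T5.

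p53 target genes set CPT apart from the other compounds on the higher side. Of 30 listed targets, 29 passed the filter and SPATA18 did not. Against DMSO, 19 of the 29 were at least 2-fold higher with CPT, beside 2.45% of all genes, and none lower, with all 29 above 0 and a median log2 ratio of 1.34 beside 0.02 for all genes. With T4, none passed 2-fold and the median was -0.03. With T5, ATF3 was higher and TNFRSF10B lower, and the median was 0.13. ATF3 is also on the list of immediate early genes below and is counted among the higher genes of both lists with CPT and with T5. CPT stood above both T4 and T5 in 28 of the 29 genes, an order found in 51.4% of all genes; the exception was PLK2, a polo-like kinase.

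By role, cell cycle arrest genes came first. CDKN1A, the p21 inhibitor of cyclin-dependent kinases, read 31.6 FPKM in DMSO, 127.5 with CPT, 32.0 with T4 and 41.8 with T5. BTG2, an antiproliferative cofactor of deadenylation, read 4.45, 41.75, 4.23 and 6.05. In both genes CPT was the only library far above DMSO. Feedback regulators followed: MDM2, the ubiquitin ligase of p53, read 13.2 in DMSO, 34.1 with CPT, 17.1 with T4 and 18.1 with T5, and PPM1D, a phosphatase that ends damage signalling, read 10.5, 28.1, 15.1 and 15.1. Among death genes, FAS, a death receptor, read 3.50 in DMSO, 17.8 with CPT, 2.42 with T4 and 2.71 with T5. BBC3, the BH3-only protein PUMA, read 1.62, 12.6, 2.53 and 3.51, and PMAIP1, the BH3-only protein NOXA, 23.8, 69.4, 29.0 and 39.9. TNFRSF10B, the TRAIL receptor DR5, divided the compounds: 11.2 in DMSO, 20.9 with CPT, 6.01 with T4 and 4.02 with T5, above DMSO with CPT and below it with T4 and T5. Metabolic and repair targets included FDXR, a mitochondrial ferredoxin reductase (14.9, 62.7, 16.99 and 16.4), SESN1, a regulator of mTORC1 (2.92, 15.2, 2.83 and 2.503), and RRM2B, a ribonucleotide reductase subunit (16.9, 42.1, 16.5 and 16.4). DDB2 and XPC, which recognise DNA lesions for nucleotide excision repair, were higher than DMSO with CPT (22.8 against 10.3 and 16.2 against 8.26). Both were lower than DMSO with T4 (8.01 and 5.44) and lowest with T5 (7.03 and 4.22). GDF15, a secreted stress cytokine, was low in DMSO at 0.25 and stood at 6.13 with CPT, 0.30 with T4 and 0.56 with T5.

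**Figure D4:**
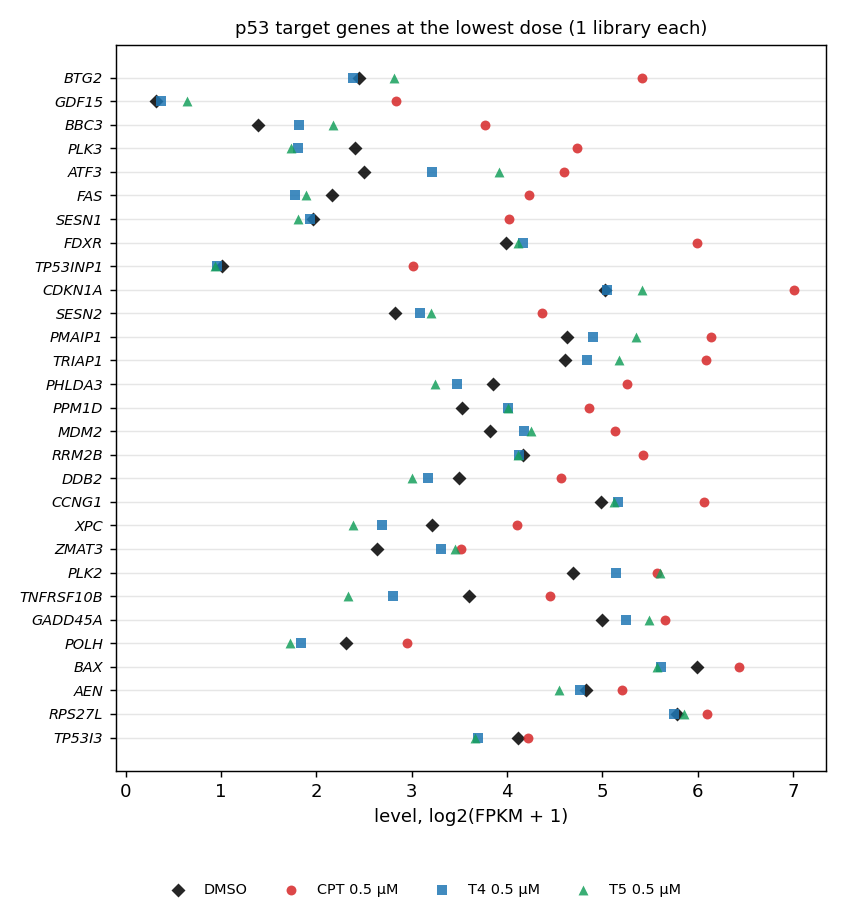
Level as log2(FPKM + 1) of the 29 measured p53 targets in DMSO and with 0.5 µM CPT, T4 or T5. CPT lies to the right of T4 and T5 in 28 of the 29, all but PLK2.

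Promoters of these targets were searched because p53 binds a known consensus, a decamer of 10 bases that occurs as a pair in a full element. RefSeq windows from 250 bases before to 50 bases after the gene start (build GRCh38.p14) were found for 25 of the targets, 37 windows in all. An exact match to the p53 consensus decamer, on either strand, lay in 7 windows (18.9%), beside 2329 of 35116 windows of all genes (6.63%). A full element of 2 decamers no more than 13 bases apart lay in 1 of the 37 (2.7%), that of DDB2, and in 10 of all windows (0.0285%). The matches are shown as 30 bases on the gene's strand, 5′ to 3′, with the match in capitals; they describe letters and do not show binding, and elements outside these windows were not searched. In order, they lie at chr5:58460199-58460228 (minus strand), chr6:109009018-109009047 (minus), chr10:88991299-88991328 (plus), chr11:47214975-47215004 (plus), chr15:63157517-63157546 (minus), chr15:88621296-88621325 (plus) and chr17:74872986-74873015 (minus).
PLK2: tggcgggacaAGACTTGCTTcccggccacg
SESN1: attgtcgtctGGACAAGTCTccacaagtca
FAS: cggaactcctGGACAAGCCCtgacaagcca
DDB2: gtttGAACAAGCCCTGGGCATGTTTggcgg
RPS27L: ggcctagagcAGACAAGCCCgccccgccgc
AEN: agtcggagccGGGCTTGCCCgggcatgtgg
FDXR: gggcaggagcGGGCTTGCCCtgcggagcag

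Among the other genes highest with CPT against DMSO were a chemokine and a polyamine enzyme. CCL4, the chemokine, read 0.59 FPKM in DMSO, 11.9 with CPT, 1.48 with T4 and 1.78 with T5 (log2 ratio 3.02 for CPT). SAT1, the acetyltransferase of polyamine breakdown, was high with both CPT and T5: 1.73, 15.97, 4.399 and 10.1. PLK3, a stress-responsive polo-like kinase that is also on the p53 list, lay above DMSO with CPT and below it with T4 and T5, with 4.30 in DMSO, 25.6 with CPT, 2.503 with T4 and 2.34 with T5. PVRL4, the adhesion protein nectin-4, read 0.24, 6.42, 0.25 and 0.52, HAP1 0.37, 6.05, 0.73 and 1.16, and SHISA2 0.40, 5.88, 1.80 and 3.17. NME1-NME2, a readthrough transcript, shares its exons with NME1 and NME2, so its values (4.00, 23.0, 6.08 and 16.6) are uncertain.

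Mitotic genes passed the 2-fold limit with CPT alone. Of 20 G2/M genes, 7 were at least 2-fold lower and none higher with CPT, beside 6.81% and 2.45% of all genes, with a median of -0.76; T4 and T5 had none past 2-fold, with medians of -0.00 and -0.16, the latter 0.02 after median centring. PLK1, the mitotic polo-like kinase, read 39.4 in DMSO, 13.6 with CPT, 41.3 with T4 and 37.0 with T5. BUB1B, a spindle checkpoint kinase, read 19.7, 5.19, 17.1 and 14.3, and CENPE, a kinetochore motor, 8.49, 2.30, 10.5 and 9.94. AURKA, BUB1, KIF11 and TTK were the other 4 past the limit. CPT lay below both T4 and T5 in 17 of the 20, an order seen in 37.5% of all genes. The 7 genes past the limit span from 11.5 kb (PLK1) and 22.8 kb (AURKA) through 37.9 kb (TTK), 40.5 kb (BUB1), 60.1 kb (BUB1B) and 62.3 kb (KIF11) to 92.5 kb (CENPE), so 5 of the 7 are longer than the all-gene median of 29.1 kb. The part of gene span in this difference was not tested.

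Genes of the G1/S transition and replication leaned the other way with CPT: 2 of 20, CCNE2 and PCNA, were at least 2-fold higher, beside 2.45% of all genes, none lower, and the median was 0.44. PCNA, the sliding clamp of DNA polymerases, read 99.6 in DMSO, 218 with CPT, 127 with T4 and 155 with T5. CCNE2, a cyclin of S phase entry, read 13.5, 31.2, 17.1 and 18.0. With T4 and T5 none passed 2-fold and the medians were 0.17 and 0.14. Of 8 measured replication-dependent histone genes, HIST1H2AC (26.2, 4.67, 31.3 and 27.6) and HIST1H2BC (8.91, 3.07, 10.3 and 9.17) were at least 2-fold lower with CPT, beside 6.81% of all genes, with a list median of -0.64. HIST2H2BE was instead higher with T5, at 5.77 in DMSO, 4.78 with CPT, 9.70 with T4 and 13.1 with T5. Most histone transcripts of this kind lack a poly(A) tail, and the labels do not say how poly(A) RNA was selected.

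The integrated stress response list held 4 of 14 genes at least 2-fold higher with CPT, beside 2.45% of all genes, with a median of 0.44, and none past 2-fold with T4 or T5. DDIT4, an mTORC1 inhibitor that p53 also activates, read 8.32 in DMSO, 26.7 with CPT, 10.4 with T4 and 15.0 with T5. SESN2, which is on the p53 list as well, read 6.06, 19.7, 7.51 and 8.19, CHAC1 7.39, 15.9, 5.62 and 5.21, and ATF5 13.99, 29.95, 19.01 and 21.01. DDIT3, the transcription factor CHOP, was level between DMSO and CPT (3.80 and 3.88) and stood at 1.75 with T4 and 1.65 with T5. Cytosolic ribosomal protein genes, which are short, had no member past 2-fold with any compound. Their median with CPT was 0.34, beside 0.26 for all genes up to 10 kb, and became 0.07 after quantile normalization. CPT was above both T4 and T5 in 48 of 51, an order found in 51.4% of all genes. The part of gene span in this order was not tested.

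The genes lowest with T4 and T5 were other genes, many of them nearer to DMSO with CPT. PMEPA1, which restrains TGF-beta signalling, read 47.3 FPKM in DMSO, 19.9 with CPT, 14.5 with T4 and 7.08 with T5. CORO2B, an actin-binding coronin, read 16.04, 5.76, 4.84 and 3.011, and ST6GALNAC5, a sialyltransferase, 8.53, 2.57, 2.42 and 1.38. In these 3 genes all compounds were below DMSO and T5 was lowest. LPCAT1, a phospholipid acyltransferase, read 14.8 in DMSO, 8.66 with CPT, 4.79 with T4 and 3.35 with T5. CCM2, a scaffold protein of endothelial junction signalling, read 20.1, 10.6, 6.75 and 4.68, and OGDH, a subunit of the oxoglutarate dehydrogenase complex, 15.4, 10.9, 5.19 and 4.57. Others were not lower with CPT at all: ASF1B, a histone chaperone, read 11.9, 21.0, 3.95 and 3.57, and CRK, a signalling adaptor, 16.4, 17.04, 6.66 and 3.80. TMED7-TICAM2, a readthrough transcript whose values are uncertain, had a T4 ratio of -1.65. The log2 ratios with T4 and T5 were -1.64 and -2.58 for PMEPA1, -1.45 and -1.87 for LPCAT1, and -1.38 and -1.49 for ASF1B.

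The genes highest with T4 and T5 included regulators of transcription and signalling. HEXIM1, the inhibitor of the elongation kinase P-TEFb, read 8.44 in DMSO, 41.9 with CPT, 24.1 with T4 and 38.7 with T5. RBM15, an RNA-binding protein of the m6A methylation machinery, read 3.91, 16.3, 12.2 and 18.8, and ARC, an immediate early gene, 7.20, 27.7, 19.3 and 33.3. In each of these genes DMSO was the lowest library and T4 the lowest treated one. ANKRD30BL was highest with T4 and T5 and also above DMSO with CPT, with 0.39 in DMSO, 1.99 with CPT, 9.37 with T4 and 10.1 with T5. ALMS1-IT1, an intronic transcript of ALMS1, read 1.34, 1.62, 7.52 and 9.76. LINC00662, a long noncoding RNA, read 3.17, 9.88, 9.58 and 15.5. RGS16, a regulator of G protein signalling, read 0.66, 3.96, 2.68 and 6.24, and GPER1, a G protein-coupled estrogen receptor, 0.92, 3.08, 3.54 and 6.95. HNRNPR was listed at 0 in DMSO and with T5 but at 72.3 with CPT and 112.9 with T4; since an exact 0 can be a failed estimate, no ratio is given. A pair of near-identical paralogs that exchanged values between libraries was likewise passed over.

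Immediate early genes, which are transcribed within minutes of a stimulus without new protein synthesis, had list medians above 0 with all 3 compounds. Of 17 measured, 7 were at least 2-fold higher with CPT, 3 with T4 and 6 with T5. Over all genes the shares were 2.45%, 0.368% and 1.21%, and among genes up to 10 kb 5.59%, 1.44% and 3.76%. FOSL1 alone was lower, with T5, and the list medians were 0.58, 0.50 and 0.63. FOS, a subunit of AP-1, read 1.13 FPKM in DMSO, 4.26 with CPT, 3.88 with T4 and 9.41 with T5, and JUNB, its partner, 4.42, 14.3, 12.1 and 14.01. EGR1, a zinc finger transcription factor, separated T5 from the rest, with 13.8 in DMSO, 12.97 with CPT, 17.03 with T4 and 29.1 with T5. NR4A1, an orphan nuclear receptor, separated CPT instead: 3.49, 12.5, 3.83 and 4.76. FOSL1, another AP-1 subunit, was divided in direction, with 14.9 in DMSO, 24.2 with CPT, 9.82 with T4 and 6.89 with T5. T5 exceeded T4 in 15 of the 17, an order found in 30.8% of all genes. The measured genes of this list had a median span of 4.50 kb. For genes up to 10 kb the T5 to T4 median was -0.02, beside -0.08 for all genes. Median centring moved the T5 to T4 ratios by 0.13. The part of gene span in this order was not tested.

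NF-kB targets are inflammatory and feedback genes. Of 12 measured, 6 were at least 2-fold higher with CPT, 4 with T5 and none with T4, beside 2.45%, 1.21% and 0.368% of all genes, with medians of 1.02, 0.79 and 0.39 and none lower. CPT stood above both T4 and T5 in 9 of the 12, an order found in 51.4% of all genes. The measured members had a median span of 6.09 kb. Among genes up to 10 kb, 5.59% were at least 2-fold higher with CPT, 3.76% with T5 and 1.44% with T4. The part of gene span in these counts was not tested. CXCL8, a neutrophil chemokine, read 1.60 in DMSO, 8.65 with CPT, 3.68 with T4 and 6.56 with T5, and CCL20, another chemokine, 2.71, 14.5, 5.85 and 8.30. TNFAIP3, the feedback inhibitor A20, read 1.64, 7.57, 3.25 and 4.46. For these 3 genes the order from low to high was DMSO, T4, T5 and CPT. The feedback inhibitor NFKBIA followed the same order (10.9, 15.8, 20.8 and 24.2 from DMSO to CPT). Other members did not follow it. NFKB1, which encodes a subunit precursor and spans 116 kb, was lowest with CPT, at 11.98 in DMSO, 8.51 with CPT, 15.0 with T4 and 15.8 with T5, and CXCL3 and CCL2, both chemokines, were highest with T5. NFKBIE and the subunits RELB and NFKB2 lay below DMSO with T4 and T5: RELB read 4.53 in DMSO, 11.6 with CPT, 3.96 with T4 and 2.88 with T5, and NFKB2 14.7, 25.7, 10.5 and 7.27.

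**Figure D5:**
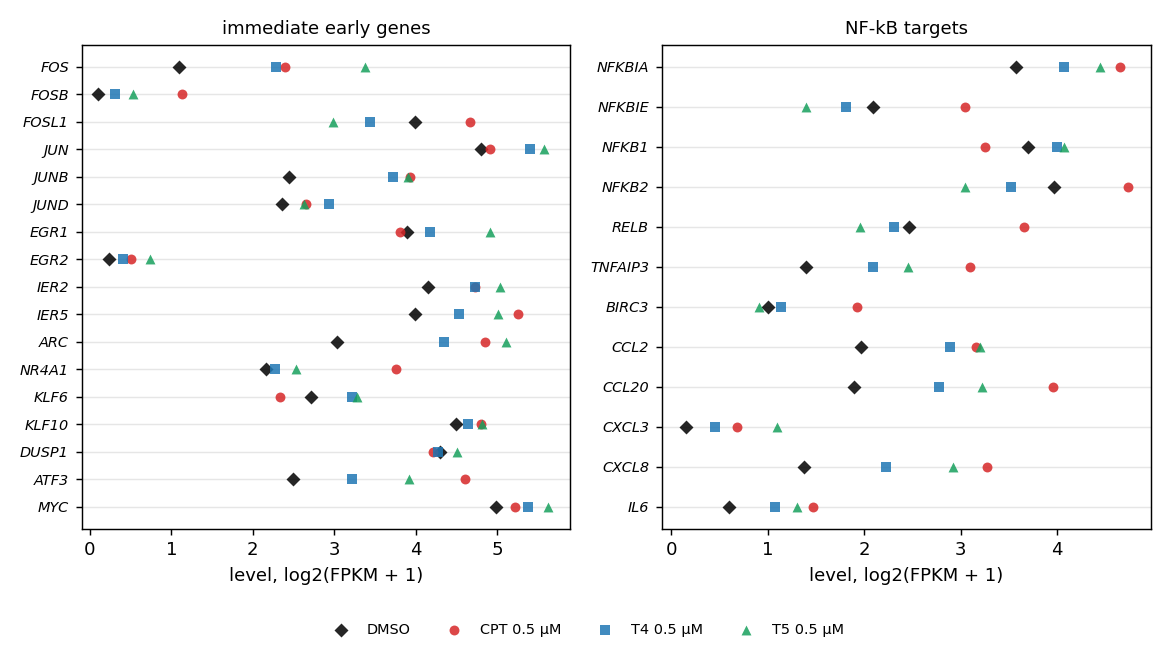
Level as log2(FPKM + 1) in the 4 libraries for the measured immediate early genes and NF-kB targets. DMSO lies at the low end for most immediate early genes, and T5 lies to the right of T4 in 15 of the 17.

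Factors that make and process transcripts were described in 5 lists. Their counts past 2-fold stand beside all-gene shares of 2.45% higher and 6.81% lower with CPT, 0.368% and 1.03% with T4, and 1.21% and 4.41% with T5. Of 16 elongation factors, HEXIM1 passed 2-fold with each compound and CCNT1, the cyclin subunit of P-TEFb, with CPT (6.97 in DMSO, 15.7 with CPT, 10.8 with T4 and 12.5 with T5). The medians were -0.02 for CPT, 0.27 for T4 and 0.32 for T5. Of 20 cleavage and polyadenylation factors, 1 was 2-fold higher and 1 lower with CPT, 1 lower with T4 and 2 lower with T5, with medians of -0.10, -0.07 and -0.13, the last 0.04 after median centring. CLP1, an RNA kinase of cleavage factor II, was the higher one with CPT: 7.40, 20.1, 11.2 and 12.1. PCF11, the other core subunit of cleavage factor II, was low with all 3 compounds at 4.74 in DMSO, 1.40 with CPT, 2.15 with T4 and 2.01 with T5. CSTF3, which holds the cleavage stimulation factor together, was lower chiefly with T4 and T5 (39.9, 27.7, 17.1 and 17.4). CPSF2, a subunit of the cleavage complex, read 11.1, 5.98, 6.22 and 4.90. The subunits of cleavage factor I, NUDT21 (37.1, 30.8, 42.05 and 45.0) and CPSF6 (15.0, 16.3, 18.6 and 18.7), whose depletion is known to favour proximal sites, stayed within 2-fold. FPKM per gene does not resolve which poly(A) site was used.

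Among 14 Integrator subunits, which cleave short nascent transcripts, INTS3 and INTS8 were 2-fold lower with CPT and INTS3 with T5. INTS3 read 7.19 in DMSO, 2.14 with CPT, 3.39 with T4 and 2.85 with T5. The medians were -0.41 for CPT, -0.13 for T4 and -0.30 for T5. Of 16 nuclear RNA decay factors, SKIV2L2 (118 kb), the exosome helicase MTR4, and ZCCHC8, its partner in the NEXT complex, were 2-fold lower with CPT: SKIV2L2 read 37.8, 12.4, 35.7 and 32.3, and ZCCHC8 4.92, 1.86, 3.28 and 2.93. Neither T4 nor T5 had a member past 2-fold; the medians were 0.00 for CPT, -0.01 for T4 and -0.11 for T5, the last 0.07 after median centring. Of 15 SR protein and CLK kinase genes, which control splicing, SRSF6 was 2-fold higher with CPT (39.5, 81.8, 56.25 and 59.4) and SRSF5 with T5 (43.5, 81.25, 70.7 and 98.0), with medians of 0.22, 0.23 and 0.21.

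In the TGF-beta and BMP feedback list, 9 genes were measured. ID2, an inhibitor of helix-loop-helix factors, read 5.14 in DMSO, 8.35 with CPT, 11.7 with T4 and 17.7 with T5, and BAMBI, a decoy receptor, 1.23, 4.69, 3.42 and 6.07. TGFB2, a ligand that spans 99.3 kb, was past 2-fold lower with CPT only, at 54.5, 9.79, 55.95 and 44.1. The counts past 2-fold were 1 higher and 1 lower with CPT, beside 2.45% and 6.81% of all genes, 1 higher with T4 (0.368%) and 2 higher with T5 (1.21%), with medians of -0.04, 0.34 and 0.22.

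In the 10 remaining lists, of 95 genes measured, 2 were at least 2-fold higher and 6 lower with CPT, beside 2.45% and 6.81% of all genes. The counts were 0 and 1 with T4, beside 0.368% and 1.03%, and 2 and 5 with T5, beside 1.21% and 4.41%. For CPT these counts lay near the shares over all genes. They covered Fanconi anaemia and homologous recombination, topoisomerases and repair of topoisomerase I lesions, the unfolded protein response, heat shock, NRF2, aryl hydrocarbon receptor, hypoxia, cholesterol synthesis, interferon, and YAP/TEAD targets. Their medians ran from -0.30 to 0.59 with CPT, -0.18 to 0.34 with T4 and -0.38 to 0.53 with T5. BRCA1, a recombination factor that spans 126 kb, was lower with all 3 compounds, at 9.82 in DMSO, 3.05 with CPT, 4.37 with T4 and 3.25 with T5. MUS81, an endonuclease of stalled forks, was lower with all 3 compounds and lowest with T5 (7.29, 4.97, 3.62 and 2.49). ERCC4, the endonuclease XPF, was lower with T4 and T5 but not with CPT (3.30, 4.86, 1.33 and 0.86). TDP1, which removes trapped topoisomerase I from DNA, read 4.93, 1.86, 2.99 and 2.38. IRF1, an interferon-inducible transcription factor, was high with CPT alone: 1.35, 6.74, 1.95 and 1.67. TEAD1 (270 kb), the DNA-binding partner of YAP, read 35.2, 7.27, 25.7 and 22.9, while CTGF, a YAP target, read 104, 111, 165 and 198.

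Set against each other at the same dose, the 3 pairs of compounds differed unequally. CPT was at least 2-fold above T4 in 352 genes (3.32%) and below it in 663 (6.25%). CPT was above T5 in 680 genes (6.42%) and below it in 527 (4.97%), a balance that turned to 516 and 665 with median centring and to 547 and 710 with quantile normalization. T5 was above T4 in 18 genes (0.17%) and below it in 11 (0.104%). The p53 targets made up 19 of the genes higher with CPT than with T4 and 16 of those higher with CPT than with T5, with list medians of 1.303 and 1.22; between T5 and T4 their median was 0.00 and none passed 2-fold. S1PR3, a sphingosine phosphate receptor, read 3.69 in DMSO, 13.2 with CPT, 1.93 with T4 and 1.23 with T5, and RMI2, a subunit of the BLM dissolvasome, 6.08, 10.8, 2.32 and 1.17. ZKSCAN1, a zinc finger protein, read 5.54, 13.6, 2.99 and 2.18. In these genes CPT lay above DMSO and both T4 and T5 below it.

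The libraries at 2 µM, which share none with those at 0.5 µM, gave the same pairs again. Of the 663 genes lower with CPT than with T4, 476 (71.8%) were at least 2-fold lower at 2 µM too, which is 45.2% of the 1053 genes called there. Of the 352 higher, 286 (81.3%) were also higher at 2 µM, or 29.6% of 966. Over all genes 9.93% were lower and 9.11% higher at 2 µM. For CPT against T5, 538 of 680 higher genes (79.1%) and 354 of 527 lower genes (67.2%) were called on the same side at 2 µM, out of 1165 higher (11.0% of all genes) and 708 lower genes (6.68%) there. For T5 against T4 the overlap was 3 of 18 higher (16.7%) and 2 of 11 lower genes (18.2%), out of 14 (0.132% of all genes) and 10 (0.0943%) called at 2 µM. The 3 higher were the small RNAs SCARNA12 and SNORA48 and the pseudogene RPL21P28. The 2 lower were the small RNA RNU6ATAC and RPL21. RPL21 and RPL21P28 exchanged values at 0.5 µM (1.90 and 0.003 FPKM with T4, 0.002 and 1.92 with T5). No better measured gene was therefore in the overlap at the 2-fold limit. FOS fell just short of it, with a T5 to T4 ratio of 1.09 at 0.5 µM and 0.99 at 2 µM. SAT1 had 1.04 and 0.84, and CCDC85B, among the lower genes, -1.08 and -0.65. Of the 18 higher genes, 9 (50%) were above 0 at 2 µM, beside 36.0% of all genes. Of the 11 lower genes, 6 (54.5%) were below 0, beside 63.5%.

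The 29 genes that separated T5 from T4 were mostly poorly measured. In 17 the T4 or T5 library was under 0.1 FPKM and in 22 it was under 1 FPKM, and 19 were small RNAs, pseudogenes or open reading frame names. Of the 10 remaining, SAT1 and FOS, given above, were higher with T5, and CCDC85B was lower, with 3.77 in DMSO, 3.74 with CPT, 14.2 with T4 and 6.21 with T5. Among better measured genes within the limit, TNFRSF1A, the main TNF receptor, read 29.2, 34.0, 17.4 and 10.1, and PMEPA1, given above, was also lower with T5 than with T4. The central 95% of T5 to T4 ratios ran from -0.47 to 0.31. Without replicates, these values do not show that T4 and T5 act alike at 0.5 µM. The labels state no structural difference between them.

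The lowest dose also held particular places within each compound's dose series. FPKM of all 17 immediate early genes was lowest at 0.5 µM among the 5 doses of CPT, as it was for 39.4% of all genes; for T4 it was so in 14 of the 17 (25.1% of all genes) and for T5 in 15 (31.4%). The p53 targets were spread: 13 of 29 (44.8%) had their highest CPT value at 0.5 µM, near the 43.7% of all genes. FAS was among them, at 17.8 with 0.5 µM and 5.16 with 2 µM CPT, and so were MDM2 (34.1 and 11.6) and RRM2B (42.1 and 21.9). Of the 20 G2/M genes, 16 had their highest CPT value at 0.5 µM, beside 43.7% of all genes. The same held for 16 with T4 (47.0% of all genes) and 17 with T5 (47.6%), so this place was not particular to CPT.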

How the data were processed

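RNA of U2OS cells was sequenced in 16 libraries, 4 of which are described here. Per the file headers, the authors deposited a single matrix of FPKM with 1 column per library; the submitters' processing notes list GSNAP, Cufflinks, hg19 and GRCh37 without roles. Tool version, annotation, strand and filter settings were not found, so overlapping antisense genes cannot be told apart. After leaving out 2 inner header lines, 1 incomplete line and 220 identical repeats, 25270 genes remained, 4531 of them at 0 in all libraries. Depth is unknown; relative depth was read from the steps of values under 0.2 FPKM.

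Ratios are differences of log2(FPKM + 1) over genes averaging 1 FPKM or more, computed with Python 3.11.15, numpy 2.4.6 and pandas 2.3.3; plots used matplotlib 3.10.9. A call is a ratio of 2-fold. The calling code was run on simulated data with changes well past 2-fold, little noise and well expressed genes only. That run checks the code and cannot show how reliable calls between single libraries are. With 1 library per condition no test was run. Nothing says that libraries came from separate cultures.

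Gene spans and kinds came from RefSeq GRCh38.p14, matched by symbol for 10471 of the 10600 genes (98.8%). No coordinates were carried between builds.

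Genes were named by rule: per compound, the 10 highest and 10 lowest ratios with at least 5 FPKM in 1 of the pair and the same direction at 2 µM; per pair of compounds, 6 each way; list members with the largest ratios, up to 4 per list; all p53 targets and cleavage and polyadenylation factors; and TOP1. Some named list members, such as examples within 2-fold, were picked after their values were seen. Small RNAs, pseudogenes and unnamed reading frames were passed over. The comparison and the 27 gene lists were chosen with earlier results of these data known; span classes, promoter search, repeats at 2 µM and places in the dose series were added after values were seen. A result for 1 list member is not reported here.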

Additional observations from a re-analysis of the deposited data

How the results depend on the processing

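No paired analysis was possible because each condition had 1 library. The alternatives were a pseudocount of 0.1, no filter, a filter over the 4 libraries, median centring and quantile normalization. None turned a called direction. Of the counts of genes past 2-fold, 45 stayed within 1.5 times and 15 did not. With a pseudocount of 0.1, which admits low genes, the counts were 485 higher for CPT, 119 higher and 309 lower for T4, 236 higher and 944 lower for T5, 707 higher for CPT against T4, 1158 higher for CPT against T5, and 36 higher and 17 lower for T5 against T4. Quantile normalization gave 394 higher for CPT, 62 higher for T4, and 249 higher and 272 lower for T5; median centring gave 220 higher and 241 lower for T5. The cause was not tested. The median CPT ratio of genes over 200 kb, -1.09, was -0.95 with quantile normalization and -0.38 with no filter, where genes with little or no expression enter. List medians stayed within the limit in 772 cases and moved past it in 8, and ratios of named genes stayed in 3229 cases and moved in 137; for T5 the sign of the medians of G2/M genes, cleavage and polyadenylation factors, nuclear RNA decay factors and YAP/TEAD targets turned with median centring. The spread between cultures is unknown, and low FPKM limits every ratio near 0.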
